A study of Homo sapiens with 6 samples.

Results

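The enzymes that add acetyl groups to proteins, the enzymes that remove them and the bromodomain proteins that bind acetylated lysine were described at the RNA level in C4-2 prostate cancer cells. The members were 36 genes, taken by symbol from a fixed list and not by a cut on any measured value, of 14456 genes in the deposited table. That list was chosen with earlier results of these data known. They comprised 12 acetyltransferases, 10 zinc-dependent deacetylases, 6 sirtuins and 8 bromodomain readers. All 36 were present and all passed the filter on low values.

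PolyA RNA was sequenced from C4-2 cells in 2 groups of 3 libraries each, one exposed for 6 days to 100 nM of IPI-9119 and one to 0.1% DMSO, the vehicle. C4-2 is a single castration-resistant line derived from LNCaP, grown here in RPMI medium with 10% fetal bovine serum, and IPI-9119 inhibits fatty acid synthase. The comparison asked how RNA levels differed under inhibition of that enzyme. Whether the replicates came from separate cultures is not stated in the labels; p-values therefore reflect only library-to-library spread, possibly technical.

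The libraries held 19090749 to 20422882 reads with IPI-9119 and 21952620 to 23448035 with DMSO. All 13 luminal prostate markers checked were present, among them KLK3, with 176495 reads over the IPI-9119 libraries and 401533 over the DMSO libraries. Of these markers 10 were lower and 1 higher under IPI-9119, with a median log2 fold change of -0.92, and their part in the results was not tested. The markers of other lineages that were tested (among them ITGB4 of basal cells, SYP of neuroendocrine cells, VWF of endothelium, COL1A1, COL3A1 and ACTA2 of fibroblasts) had at most 139 reads over the IPI-9119 libraries and 159 over the DMSO libraries, with ACTA2 the only one past the test (45 and 17 reads). Values are gene counts divided by the authors' size factor for each library, called normalised counts here. Because that scaling is relative, and because RNA of whole cultures was pooled, a lower value in every cell and loss from some of the cells cannot be told apart.

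Lysine acetyltransferases move an acetyl group from acetyl-CoA, the same metabolite that feeds fatty acid synthesis, onto histones and other proteins. Classical deacetylases remove it with a zinc ion, and sirtuins do so while consuming NAD+. Bromodomains are pockets that recognise the acetylated lysine and bring further complexes to chromatin. In prostate cancer the paired acetyltransferases p300 and CBP and the BET bromodomain proteins are known as transcriptional coactivators.

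The set was mostly lower under IPI-9119, and its fall was uneven. With limma, 24 of 36 members fell, 2 rose and 10 did not pass at a Benjamini-Hochberg adjusted p under 0.05. Over all 14437 genes tested 62.8% passed by the same rule, 31.4% lower and 31.3% higher. At least a 2-fold fall was found for 10 members, against 9.27% of all genes, and at least a 2-fold rise for none, against 7.92%. The median log2 fold change was -0.53 for the members and 0.0017 for all genes. The libraries of both groups did not overlap for 26 members that were lower and 3 that were higher, where 33.9% and 34.0% of all genes did so, 67.9% in either direction.

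**Figure D1:**
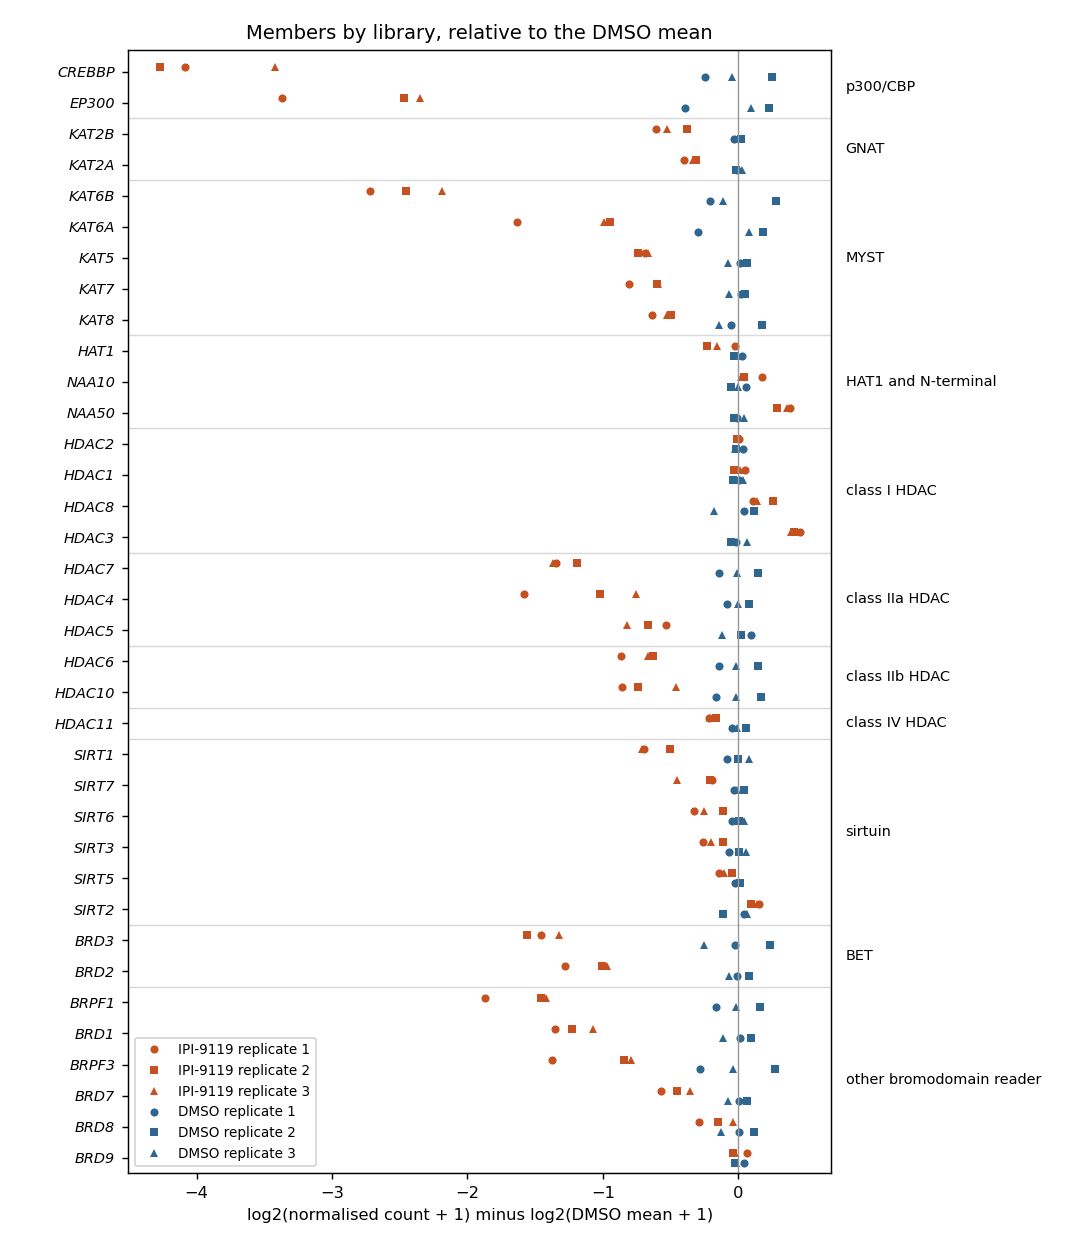
Each row is a member and each point a library, placed by log2(normalised count + 1) minus the log2 of the DMSO mean plus 1, with IPI-9119 libraries in orange above DMSO libraries in blue and classes named at the right. CREBBP, EP300 and KAT6B lie farthest left under IPI-9119, while HDAC1, HDAC2 and BRD9 lie on the DMSO mean.

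The steepest falls were those of the coactivators p300 and CBP. CREBBP, which encodes CBP (ENSG00000005339, chromosome 16, 3725054 to 3880726, minus strand, in GRCh38 by GENCODE 29), was at 27.4, 24.0 and 44.0 normalised counts under IPI-9119 and at 406, 573 and 467 under DMSO. The IPI-9119 level was thus 6.60% of the DMSO level, from means of 31.8 ± 10.7 and 482 ± 84.5 (SD, n = 3 each). Its log2 fold change of -3.91 (SE 0.21, limma, adjusted p 3.21e-09) placed it 8th from the bottom among the 14437 genes tested. Its IPI-9119 value rests on 88 reads over the group, against 1569 with DMSO.

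EP300, which encodes p300 (ENSG00000100393, chromosome 22, 41091786 to 41180079, plus strand), gave 92.8, 173 and 189 normalised counts with IPI-9119 and 737, 1134 and 1030 with DMSO. Every IPI-9119 library lay well below the lowest DMSO library. EP300 fell by 2.71 on the log2 scale (SE 0.29, limma, adjusted p 1.20e-04). Replicate 1 was the lowest library of EP300 within each group.

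Promoter windows were available for 31 members (RefSeq, GRCh38.p14), KAT6A, KAT8, NAA10, HDAC5 and SIRT7 having no entry. The 250 bases before the annotated start are printed for CREBBP, BRPF1 and BRD3, which fell, and for HDAC1, which did not pass the test. At most 13 bases of any printed window lay in annotated exons. EP300 and KAT6B fell more than BRPF1 and BRD3, but their windows are not printed. Sequences run 5′ to 3′ on the gene's strand, and capitals mark matches to the motifs searched. The windows are chr16:3880714-3880963 (minus), chr3:9731485-9731734 (plus), chr9:134068027-134068276 (minus) and chr1:32291833-32292082 (plus), in the order given.
CREBBP: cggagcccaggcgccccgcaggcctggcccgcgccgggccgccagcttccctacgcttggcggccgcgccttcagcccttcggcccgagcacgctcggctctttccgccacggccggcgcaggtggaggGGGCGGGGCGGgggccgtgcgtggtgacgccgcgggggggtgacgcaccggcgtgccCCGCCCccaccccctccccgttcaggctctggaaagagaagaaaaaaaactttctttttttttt
BRPF1: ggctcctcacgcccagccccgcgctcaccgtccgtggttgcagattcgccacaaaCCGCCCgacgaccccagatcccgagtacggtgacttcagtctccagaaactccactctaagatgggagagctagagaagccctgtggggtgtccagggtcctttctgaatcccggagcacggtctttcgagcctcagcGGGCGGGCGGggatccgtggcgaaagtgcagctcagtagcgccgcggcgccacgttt
BRD3: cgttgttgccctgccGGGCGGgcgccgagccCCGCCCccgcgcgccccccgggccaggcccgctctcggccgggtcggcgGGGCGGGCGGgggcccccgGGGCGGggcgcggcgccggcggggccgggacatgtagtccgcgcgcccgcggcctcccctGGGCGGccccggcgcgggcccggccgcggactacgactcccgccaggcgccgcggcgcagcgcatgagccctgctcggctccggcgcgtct
HDAC1: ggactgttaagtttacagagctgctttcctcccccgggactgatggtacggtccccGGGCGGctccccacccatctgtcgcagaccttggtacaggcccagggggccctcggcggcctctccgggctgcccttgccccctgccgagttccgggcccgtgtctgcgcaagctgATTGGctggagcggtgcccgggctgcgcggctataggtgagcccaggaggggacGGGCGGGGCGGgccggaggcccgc

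The motifs were searched on both strands: the GC box GGGCGG, the CCAAT box CCAAT, the ETS core CCGGAAG, the E-box CACGTG, the cyclic AMP element TGACGTCA and the NRF1 palindrome. GC boxes, counted with overlaps, occurred 3 times each in the CREBBP, BRPF1 and HDAC1 windows and 6 times in that of BRD3, and HDAC1 also held a CCAAT box. The GC box was present in 19 of 31 member windows, against 42.3% of 27305 promoter windows of the same length. It was in 13 of 20 windows of members that fell and in 6 of the other 11. CCAAT boxes were in 6 of 31 member windows (33.0% of all windows), the ETS core in 6 (8.82%), the E-box in 2 (6.49%), the NRF1 palindrome in 2 (1.13%) and the cyclic AMP element in 0 (1.77%). Member windows were GC-rich, with a median GC content of 70.8% against 58.0% for all windows. These matches are letters in a window and not measured binding sites.

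The other lysine acetyltransferases fell less. KAT2A and KAT2B encode GCN5 and PCAF, the catalytic subunits of the SAGA and ATAC coactivator complexes. KAT2A gave 850, 903 and 886 normalised counts with IPI-9119 and 1112, 1108 and 1140 with DMSO (log2 fold change -0.35, limma, adjusted p 1.59e-04). KAT2B gave 430, 503 and 454 with IPI-9119 and 643, 664 and 659 with DMSO (-0.51, adjusted p 7.30e-05). Both were lower in every IPI-9119 library than in any DMSO library, as were 33.9% of all genes.

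All 5 MYST acetyltransferases fell. KAT6B (ENSG00000156650, chromosome 10, 74824927 to 75032624, plus strand), a subunit of a complex built on BRPF proteins, gave 102, 123 and 148 normalised counts with IPI-9119 and 588, 824 and 630 with DMSO. This was a log2 fold change of -2.44 (SE 0.15, limma, adjusted p 1.63e-08), the third largest fall in the set. Its paralog KAT6A, also known as MOZ, gave 292, 472 and 458 with IPI-9119 and 740, 1032 and 961 with DMSO (-1.18, adjusted p 6.69e-04). KAT7, which acetylates histone H3 with BRPF partners and histone H4 with JADE partners, averaged 646 ± 53.7 with IPI-9119 and 1024 ± 44.5 with DMSO (-0.67; SD, n = 3 each). KAT5, the TIP60 enzyme of the NuA4 complex, averaged 543 ± 15.1 with IPI-9119 and 882 ± 43.4 with DMSO (-0.70). KAT8, which acetylates histone H4 in the MSL and NSL complexes, averaged 278 ± 13.9 and 408 ± 47.8 (-0.55). In none of the 5 did the groups overlap, where 33.9% of all genes were lower without overlap. Exons of KAT5 share 38.6% of their length with RNASEH2C on the opposite strand, and the strand setting of the counting is not given in the sources used here, so its level is uncertain.

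Among HAT1 and the N-terminal enzymes 1 rose, 1 fell and 1 did not pass. NAA50 (ENSG00000121579, chromosome 3, 113716460 to 113746300, minus strand), the catalytic subunit of the NatE N-terminal acetyltransferase, was 1 of 2 members that rose. It gave 7459, 6977 and 7336 normalised counts with IPI-9119 and 5673, 5608 and 5882 with DMSO (log2 fold change 0.34, SE 0.046, limma, adjusted p 1.51e-05). NAA10, the catalytic subunit of NatA, gave 1361, 1239 and 1224 with IPI-9119 and 1250, 1162 and 1202 with DMSO, groups that overlap (0.080, 95% interval -0.054 to 0.21, adjusted p 0.278). HAT1, which acetylates newly made histone H4, gave 2602, 2253 and 2372 with IPI-9119 and 2704, 2594 and 2647 with DMSO. It fell by 0.14 on the log2 scale at an adjusted p of 0.0478 (limma), with overlapping groups. That call was lost under 7 of the 19 alternatives, where adjusted p ran up to 0.228. After correction for length and GC content HAT1 was lower at -0.26 (limma, adjusted p 3.85e-04), and at -0.37 (3.99e-07) by principal transcript.

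**Figure D2:**
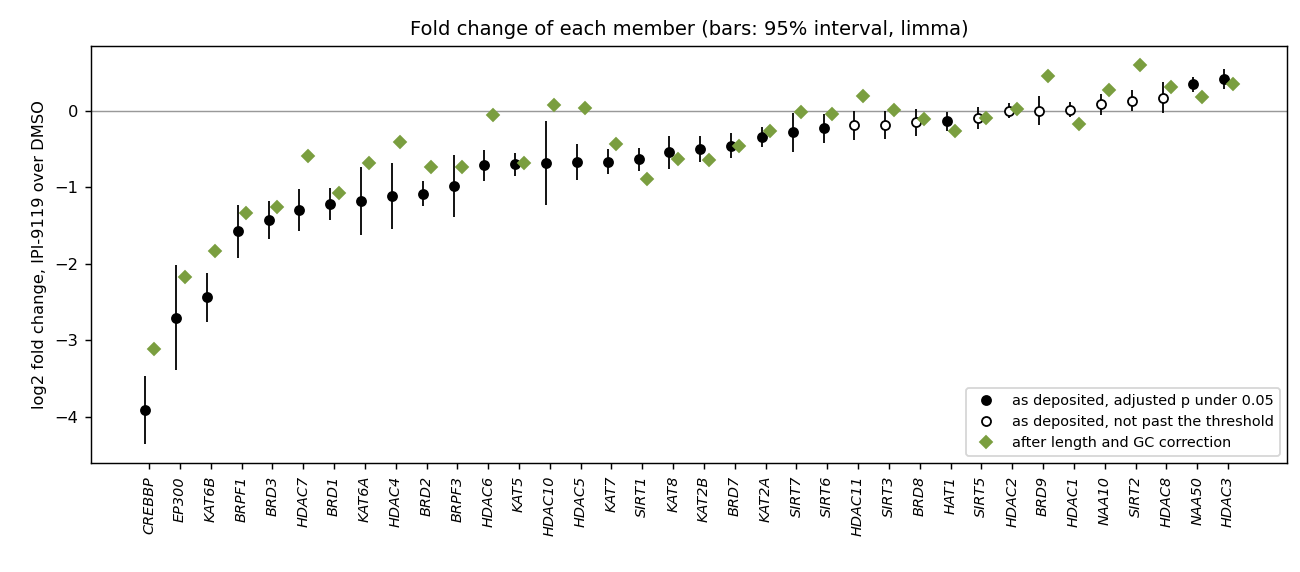
Members are ordered along the x axis by log2 fold change of IPI-9119 over DMSO on the y axis; circles with 95% intervals are the limma estimates, filled where the adjusted p is under 0.05, and diamonds are estimates after the length and GC correction. Estimates run from -3.91 for CREBBP to 0.42 for HDAC3, and the diamonds of HDAC5, HDAC6 and HDAC10 lie near 0.

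Of 4 class I deacetylases 1 rose and 3 did not pass. HDAC1 and HDAC2 are the catalytic cores of the Sin3, NuRD and CoREST corepressor complexes. HDAC1 gave 4836, 4580 and 4704 normalised counts with IPI-9119 and 4698, 4539 and 4780 with DMSO. Its log2 fold change was 0.011 with a 95% interval of -0.088 to 0.11 (limma, adjusted p 0.854), but it was lower at -0.18 after correction for length and GC content. HDAC2 gave 3790, 3749 and 3770 with IPI-9119 and 3871, 3728 and 3715 with DMSO, a log2 fold change of -0.00044 (95% interval -0.097 to 0.096). Both intervals lie far from the values of CREBBP and EP300. HDAC3, the enzyme of the NCoR complex (ENSG00000171720, chromosome 5, 141620876 to 141636870, minus strand), rose. It gave 1218, 1182 and 1166 with IPI-9119 and 880, 859 and 932 with DMSO, 1.34-fold by the means (log2 fold change 0.42, SE 0.061, limma, adjusted p 3.70e-05). HDAC8, which deacetylates cohesin, gave 446, 493 and 454 with IPI-9119 and 426, 449 and 366 with DMSO, with overlapping groups (0.17, 95% interval -0.031 to 0.37, adjusted p 0.128).

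The class II deacetylases all fell, from low levels except in HDAC6. HDAC4, HDAC5 and HDAC7 are class IIa enzymes, which shuttle between nucleus and cytoplasm and act with the NCoR complexes. HDAC7 gave 95.9, 107 and 94.6 normalised counts with IPI-9119 and 222, 271 and 243 with DMSO (log2 fold change -1.30, limma, adjusted p 7.69e-07). HDAC4 gave 41.1, 61.1 and 73.7 with IPI-9119 and 118, 132 and 125 with DMSO (-1.12, adjusted p 2.26e-04). HDAC5 gave 230, 209 and 188 with IPI-9119 and 356, 339 and 306 with DMSO (-0.67, adjusted p 9.57e-05). None of the 3 overlapped between groups, where 33.9% of all genes were lower without overlap.

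HDAC6, the cytoplasmic tubulin deacetylase of class IIb, gave 338, 400 and 390 normalised counts with IPI-9119 and 560, 685 and 614 with DMSO (log2 fold change -0.72, limma, adjusted p 1.65e-05). HDAC10, a polyamine deacetylase of the same class, rests on 60 reads over the IPI-9119 libraries and 115 over the DMSO libraries. It gave 19.0, 20.7 and 25.3 with IPI-9119 and 31.3, 39.6 and 34.9 with DMSO (-0.68, adjusted p 0.0306). That call was lost without IPI-9119 replicate 1 (adjusted p 0.0810) or 2 (0.0656), without DMSO replicate 2 (0.110) or 3 (0.0664), and with DESeq2 (0.0929). HDAC10 exons also share 55.8% of their length with MAPK12 on the same strand, so reads may have been lost to or taken from that gene. HDAC11, the sole class IV enzyme, gave 286, 297 and 287 with IPI-9119 and 321, 345 and 330 with DMSO. Its groups did not overlap, but it did not pass the test (-0.19, 95% interval -0.39 to -0.0028, adjusted p 0.0718).

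The length and GC correction removes from each library the trend of fold with exonic length and GC content over all genes. With merged exons the calls of HDAC4, HDAC5, HDAC6, HDAC10, SIRT6 and SIRT7 were lost. HDAC1 was newly called lower, and NAA10, HDAC8, SIRT2 and BRD9 were newly called higher. HDAC5 became 0.031 (adjusted p 0.832), HDAC6 -0.058 (0.524), HDAC10 0.078 (0.805) and HDAC4 -0.41 (0.0519), while HDAC7 stayed past the threshold at -0.59 (adjusted p 4.11e-04). The chromatin acetyltransferases kept their calls. CREBBP became -3.11, EP300 -2.18, KAT6B -1.83 and KAT6A -0.68, and all 9 of the p300/CBP, GCN5/PCAF and MYST enzymes remained lower. With the length and GC content of the principal transcript instead of merged exons, KAT2A did not pass (-0.11, adjusted p 0.0913) and HDAC6 did (-0.31, adjusted p 0.00204). After the correction with merged exons 19 members were lower and 6 higher, where 35.0% and 30.2% of all genes were. With the principal transcript 22 were lower and 2 higher (35.7% and 30.0% of all genes). SIRT5, not past the threshold in the main test, was among these 22 (-0.18, limma, adjusted p 0.0163).

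Of 6 sirtuins 3 fell, SIRT1 the most. SIRT1, the main nuclear NAD+-dependent deacetylase, gave 1007, 1146 and 993 normalised counts with IPI-9119 and 1541, 1626 and 1724 with DMSO, without overlap. Its log2 fold change was -0.64 (SE 0.069, limma, adjusted p 2.01e-06). Corrected for length and GC, it was -0.89. SIRT6, a chromatin-bound histone H3 deacetylase, gave 328, 381 and 344 with IPI-9119 and 398, 413 and 422 with DMSO (-0.23, adjusted p 0.0359). SIRT7, of the nucleolus, gave 172, 170 and 143 with IPI-9119 and 192, 202 and 196 with DMSO (-0.29, adjusted p 0.0498). The calls of SIRT6 and SIRT7 were lost under DESeq2, quantile scaling and the length and GC correction with merged exons, and without most single libraries, at adjusted p up to 0.675 for SIRT6 (with the correction) and 0.922 for SIRT7 (with the correction and the replicate block).

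The remaining sirtuins did not pass. SIRT2, mainly cytoplasmic, gave 1123, 1075 and 1113 normalised counts with IPI-9119 and 1039, 935 and 1053 with DMSO (log2 fold change 0.13, limma, adjusted p 0.0917). SIRT3, the main mitochondrial deacetylase, gave 343, 381 and 356 with IPI-9119 and 391, 413 and 428 with DMSO (-0.19, adjusted p 0.0678). SIRT5, which removes succinyl and malonyl groups, gave 706, 754 and 726 with IPI-9119 and 765, 788 and 785 with DMSO (-0.097, adjusted p 0.208). In each of these 3 the groups did not overlap, SIRT2 being higher and SIRT3 and SIRT5 lower. Of all genes, 67.9% did not overlap in either direction.

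Both BET genes fell by more than 2-fold. BRD2 gave 1609, 1944 and 1995 normalised counts with IPI-9119 and 3881, 4121 and 3733 with DMSO (log2 fold change -1.09, SE 0.074, limma, adjusted p 4.42e-08). BRD3 (ENSG00000169925, chromosome 9, 134030305 to 134068535, minus strand) gave 244, 227 and 267 with IPI-9119 and 660, 789 and 561 with DMSO (-1.43, SE 0.12, adjusted p 1.12e-07). BET proteins carry paired bromodomains and hold transcription complexes at acetylated chromatin. After the length and GC correction BRD2 was at -0.74 and BRD3 at -1.25. Exons of BRD3 share 18.6% of their length with BRD3OS on the opposite strand.

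The BRPF family, scaffolds that bind the MYST enzymes KAT6A, KAT6B and KAT7, fell as well. BRPF1 (ENSG00000156983, chromosome 3, 9731729 to 9748018, plus strand) gave 53.8, 72.0 and 73.7 normalised counts with IPI-9119 and 178, 223 and 197 with DMSO (log2 fold change -1.58, SE 0.16, limma, adjusted p 1.11e-06). BRD1, also called BRPF2, gave 221, 242 and 269 with IPI-9119 and 575, 606 and 525 with DMSO (-1.22, adjusted p 1.06e-07). BRPF3 gave 283, 410 and 423 with IPI-9119 and 604, 888 and 715 with DMSO (-0.99, adjusted p 0.00116, and -0.46 with adjusted p 0.00444 after the correction by principal transcript). The groups did not overlap in any of the 3 scaffolds, where 33.9% of all genes were lower without overlap.

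The remaining bromodomain members, BRD7, BRD9 and BRD8, moved less. BRD7, of the PBAF remodeller, gave 501, 542 and 581 normalised counts with IPI-9119 and 747, 777 and 704 with DMSO (log2 fold change -0.46, limma, adjusted p 1.51e-04). Its exons share 42.3% of their length with ADCY7 on the opposite strand. BRD9, of the non-canonical BAF remodeller, gave 346, 322 and 326 with IPI-9119 and 341, 326 and 327 with DMSO, the same mean of 331 in both groups (95% interval of the log2 fold change -0.19 to 0.19). BRD8, of the NuA4 complex, gave 607, 669 and 720 with IPI-9119 and 745, 802 and 677 with DMSO, with overlap (-0.16, 95% interval -0.34 to 0.026, adjusted p 0.124).

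Some members that did not pass were past the threshold and higher after the correction with merged exons: SIRT2 at 0.60 (adjusted p 1.38e-06), BRD9 at 0.45 (5.50e-04), HDAC8 at 0.31 (0.00868) and NAA10 at 0.27 (0.00133). With the principal transcript these were 0.093, -0.10, 0.083 and -0.0053, none past the threshold. HDAC1 was past the threshold and lower under both, at -0.18 (adjusted p 7.05e-04) and -0.17 (4.14e-04). The rises of NAA50 (0.17 and 0.24) and HDAC3 (0.34 and 0.26) held under both.

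Levels between genes were compared per length, as TPM, the share of transcripts scaled by length and depth, computed from the recovered reads and the length of each gene's principal transcript. That length is an annotation choice, so the order of close levels is uncertain. With DMSO, HDAC1 was the most abundant member at 219 ± 2.69 TPM, followed by HAT1 at 162 ± 1.39, NAA50 at 92.6 ± 1.88 and BRD2 at 79.5 ± 5.41 (SD, n = 3 each). CREBBP at 4.44 ± 0.867 TPM and EP300 at 10.0 ± 2.29 were among the lower levels, and HDAC10 and HDAC4 were lowest at 1.31 ± 0.180 and 1.38 ± 0.104. With IPI-9119, CREBBP had the lowest level of all 36, at 0.271 ± 0.0961 TPM, and EP300 was at 1.47 ± 0.535. Across the 36 members the log2 fold change ran with the log2 DMSO level per length (Spearman 0.63, and 0.29 after the length and GC correction), while across all 14386 genes with a length it did not (-0.055). The points share libraries and the level contains transcript length, and the values are given as a description.

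**Figure D3:**
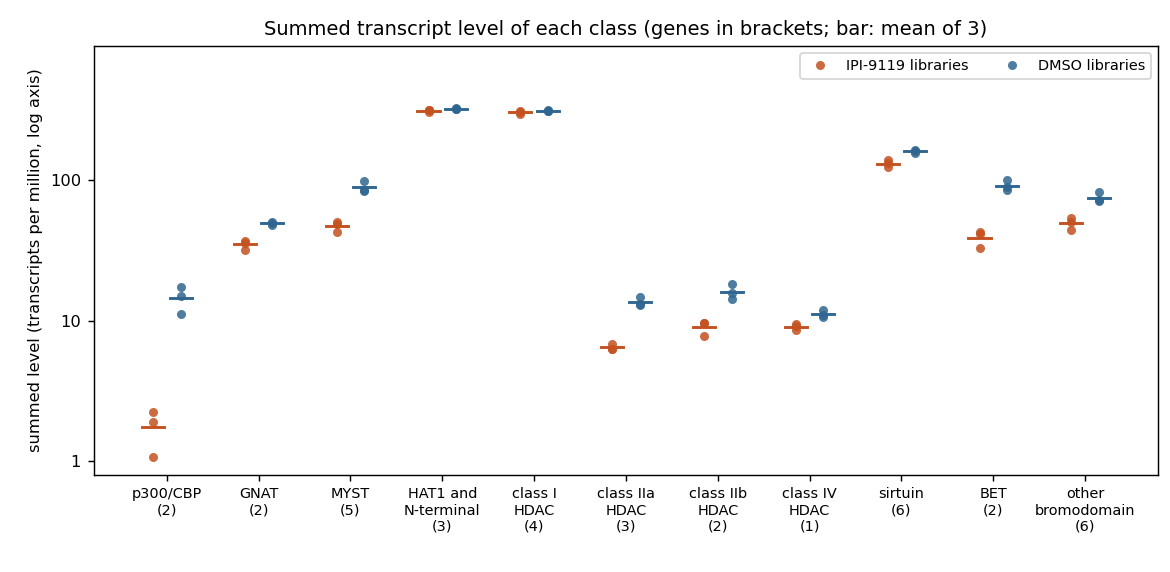
Points are libraries and bars the means of 3, IPI-9119 left of DMSO, for the summed level of each class in TPM on a log axis, with the number of genes in brackets. The p300/CBP pair shows the widest gap, and class I deacetylases and the HAT1 and N-terminal group lie at nearly equal heights in both groups.

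Summed by class, CREBBP and EP300 gave 1.08, 1.90 and 2.23 TPM in the IPI-9119 libraries and 11.2, 17.4 and 14.8 in the DMSO libraries, so the IPI-9119 sum was 12.0% of the DMSO sum. The corresponding figure was 42.5% for the BET genes, 47.4% for class IIa deacetylases, 53.2% for the MYST enzymes and 56.3% for class IIb. It was 65.9% for the other bromodomain readers, 70.7% for KAT2A and KAT2B and 81.8% for sirtuins. HAT1 with the N-terminal enzymes gave 96.5% and class I deacetylases 97.7%. TPM is scaled differently from the normalised counts behind the fold changes. BRD9, at a mean of 331 normalised counts in both groups, was at 14.1 TPM with IPI-9119 and 15.3 with DMSO. HDAC1 was at 204 and 219 TPM, with means of 4707 and 4672 normalised counts. The figures for HAT1 with the N-terminal enzymes and for class I deacetylases are therefore not read as falls. CREBBP and EP300 together made up 2.04% ± 0.570 of the summed level of the 9 chromatin acetyltransferases with IPI-9119 and 9.44% ± 1.43 with DMSO (SD, n = 3 each). Class I enzymes made up 92.5% ± 0.404 of zinc deacetylase transcripts with IPI-9119 and 88.4% ± 0.883 with DMSO. The sums of all 12 acetyltransferases were 394 ± 6.26 and 474 ± 11.6 TPM, and those of all 10 zinc deacetylases 326 ± 6.33 and 349.6 ± 4.27.

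Paralogs and subclass partners were compared within each library by their log2 ratio in 13 pairs, with a two-sided exact permutation test whose smallest possible p is 0.1. No pair could therefore pass, and the smallest p adjusted over the 13 pairs was 0.163. The ratio of CREBBP to EP300 was -1.72, -2.80 and -2.08 in the IPI-9119 libraries and -0.86, -0.98 and -1.14 in the DMSO libraries, a difference of -1.21 (exact p 0.1). For KAT6A to KAT6B it was 1.505, 1.93 and 1.62 with IPI-9119 and 0.33, 0.33 and 0.61 with DMSO (difference 1.26, exact p 0.1). Within both pairs the groups did not overlap; relative to its paralog, CREBBP was lower under IPI-9119 and so was KAT6B.

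Further pairs without overlap, each at an exact permutation p of 0.1, were HDAC5/HDAC7 (difference in log2 ratio 0.62), BRPF1/BRPF3 (-0.59), BRD7/BRD9 (-0.46), BRD1/BRPF1 (0.36), NAA10/NAA50 (-0.26) and KAT2A/KAT2B (0.16). The groups overlapped for HDAC4/HDAC5 (-0.44, exact p 0.3), BRD2/BRD3 (0.35, exact p 0.2), SIRT6/SIRT7 (0.055, exact p 0.6), HDAC6/HDAC10 (-0.034, exact p 0.8) and HDAC1/HDAC2 (0.011, exact p 0.8). The ratio of HDAC1 to HDAC2 ran from 0.29 to 0.35 with IPI-9119 and from 0.28 to 0.36 with DMSO.

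CREBBP, EP300 and KAT6B have long exons, and fold ran with length across the whole table. Over 14392 genes the slope of a library's log2 deviation from the gene mean was -0.094, -0.037 and -0.027 per doubling of exonic length in the IPI-9119 libraries and 0.029, 0.076 and 0.054 in the DMSO libraries. Replicate 1 was the lowest IPI-9119 library for 16 of the 24 members that fell, and it had the steepest slope of the IPI-9119 libraries. DMSO replicate 2 was the highest DMSO library for 19 of these 24 and had the highest slope. Without IPI-9119 replicate 1, 22 members were lower, and without DMSO replicate 2, 20 were.

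The members were read beside genes of similar length. Of 20 members with exons of 4 to 8 kb 12 fell and 2 rose, where 35.8% of 5522 genes of that length fell and 31.5% rose. Of 9 members with 8 to 16 kb 7 fell and none rose (46.1% and 24.1% of 2458 genes). Of 3 over 16 kb 2 fell and none rose (47.8% and 19.1% of 324 genes). Of 4 with 2 to 4 kb 3 fell and none rose (23.5% and 37.1% of 3820 genes). HDAC2 and HDAC8, with merged exons of 15461 and 22986 bases, did not pass, whereas CREBBP, with 15492 bases, had the largest fall. The principal transcript has 9874 bases in HDAC2, 5689 in HDAC8 and 10803 in CREBBP. These genes also differ in GC content, at 38.16% in HDAC2, 40.76% in HDAC8 and 55.75% in CREBBP. Over the 36 members Spearman's coefficient of fold with exonic length was -0.33, and -0.19 after the correction with merged exons. With principal transcript length in its place it was -0.49, and -0.45 after that same correction.

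**Figure D4:**
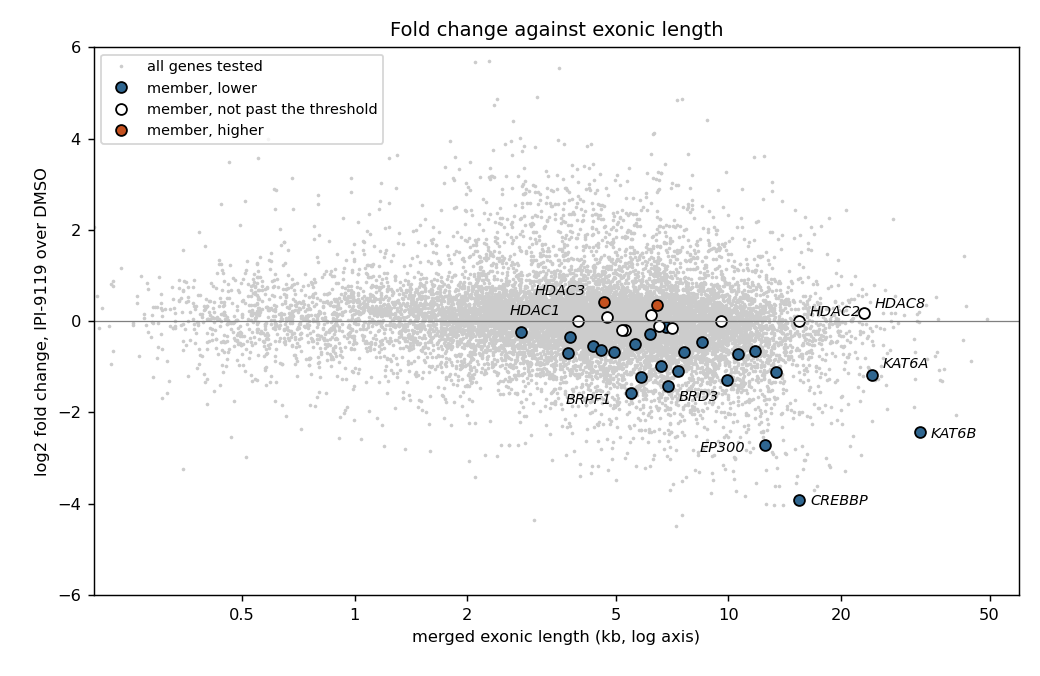
Log2 fold change of IPI-9119 over DMSO on the y axis against merged exonic length in kb on a log x axis, for all genes tested in grey and for members as circles, blue where lower, orange where higher and open where not past the threshold; 36 genes fall outside the axes. CREBBP, EP300 and KAT6B lie at the lower right, and HDAC2 and HDAC8 lie near 0 among the members with the longest merged exons.

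Partner subunits of these enzymes were mostly lower too. Of 112 tested partners and other bromodomain genes 74 fell, 8 rose and 30 did not pass, with a median log2 fold change of -0.38. These were 66.1% lower and 7.14% higher, against 31.4% and 31.3% of all genes. Their median exonic length was 7661.5 bases, and of all genes with 4 to 8 kb 35.8% fell. Of 47 partners of acetyltransferase complexes 30 fell and 4 rose (median -0.36). EP400, the ATPase of the NuA4 complex, fell to 29.9 ± 4.01 normalised counts with IPI-9119, against 284 ± 39.4 with DMSO (log2 fold change -3.21; SD, n = 3 each). TRRAP, the scaffold shared by the SAGA and NuA4 complexes, fell by 1.95 on the log2 scale. The largest rises in that list were YEATS4 (0.50) and MRGBP (0.35), small NuA4 subunits. After the length and GC correction YEATS4 was at 0.24, and MRGBP at 0.20 no longer passed (adjusted p 0.0701).

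Of 39 tested partners of deacetylase complexes 26 fell and 1 rose (median log2 fold change -0.35). These were 66.7% and 2.56% of the list, where 31.4% of all genes fell and 31.3% rose. CHD3, a NuRD ATPase, fell by 2.55 on the log2 scale, with 1588 reads over the IPI-9119 libraries and 10966 over the DMSO libraries. The histone chaperone RBBP7 was the one that rose (0.15, limma, adjusted p 0.0374), a call lost without IPI-9119 replicate 1 (adjusted p 0.127) or any single DMSO library (0.0584 to 0.127). Of 26 tested further bromodomain genes 18 fell and 3 rose (median -0.80), 69.2% and 11.5% of the list. The NURF subunit BPTF (-2.81) and the SWI/SNF ATPase SMARCA4 (-2.73) were lowest and SP100 (0.42) and ATAD2 (0.27) highest. SMARCA4 was at -1.44 after the length and GC correction.

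**Figure D5:**
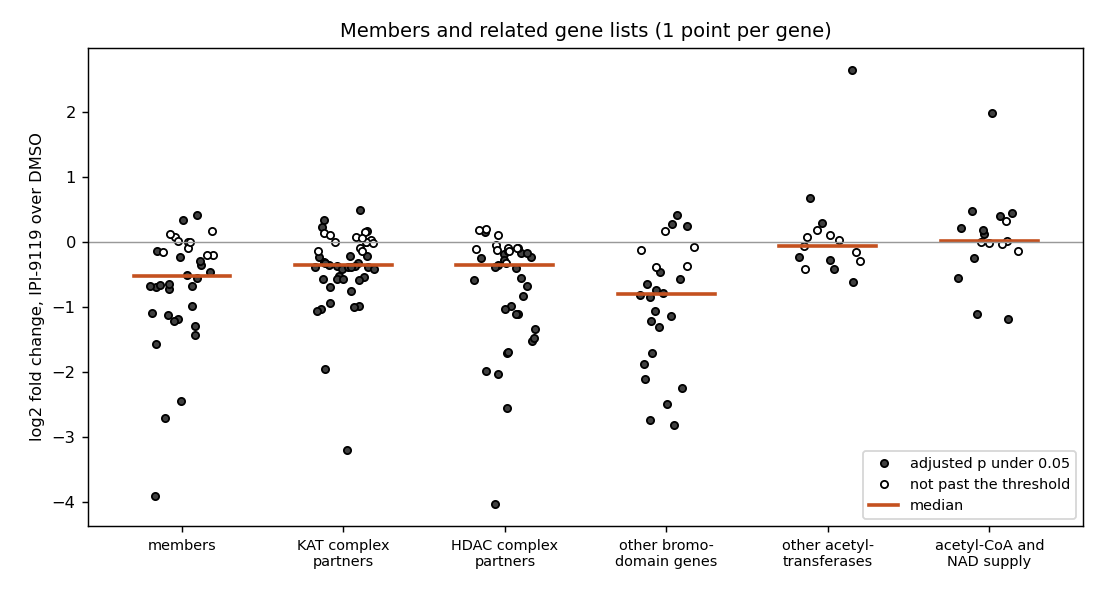
Each point is a gene, placed by its log2 fold change of IPI-9119 over DMSO, filled where the adjusted p is under 0.05, with the median of each list as an orange line. Medians lie below 0 for the members and the partner lists and near 0 for other acetyltransferases and for acetyl-CoA and NAD supply.

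Acetyltransferases outside the chromatin enzymes divided more evenly than the members, as all genes did. Of 15 tested genes, mostly N-terminal acetyltransferase subunits, 3 rose and 4 fell, the other 8 not passing, at a median log2 fold change of -0.058. These are 20% and 26.7% of the list, against 31.3% and 31.4% of all genes. ESCO2, which acetylates cohesin in S phase, had 768 ± 35.7 normalised counts with IPI-9119 and 121 ± 4.48 with DMSO (2.66, SD, n = 3 each), and NAA20, the NatB catalytic subunit, rose by 0.68. NAA60 (-0.62, and -0.071 with adjusted p 0.403 after the length and GC correction) and ELP3 (-0.42) fell. Of relatives outside the 36, BRDT, a BET gene known from testis, had 60 reads over the IPI-9119 libraries and 5 over the DMSO libraries, and SIRT4 did not pass (0.18, limma, adjusted p 0.661).

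Genes that supply the cofactors moved in both directions. Of 17 tested genes of acetyl-CoA and NAD supply 7 rose and 4 fell, the other 6 not passing, at a median log2 fold change of 0.017; these are 41.2% and 23.5% of the list, against 31.3% and 31.4% of all genes. ACSS2, which makes acetyl-CoA from acetate, rose to 3129 ± 41.0 normalised counts with IPI-9119, against 786 ± 27.2 with DMSO (1.99, SD, n = 3 each). DLAT, of the pyruvate dehydrogenase complex, rose by 0.48, while NNMT (-1.18) and the nuclear NAD synthase NMNAT1 (-1.11) fell. NNMT rests on 44 reads over the IPI-9119 libraries and 117 over the DMSO libraries.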

How the data were processed

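What the authors deposited is a normalised signal: whole gene counts over a size factor of each library, a reading taken from the values. Per the submitters' processing notes, which give no roles, the tools were STAR 2.5.2b, Trimmomatic 0.36, DESeq2, featureCounts and Subread 1.5.2, with the build GRCh38. Annotation release and strand setting are not given in the sources used here. All values (100%) were whole multiples of 1 read within 0.01 read, which gave counts back.

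The main test was limma 3.58.1 (R 4.3.3, trend and robust) on log2(value + 1) over 14437 genes with a mean of at least 10, with Benjamini-Hochberg adjustment over all of them; this scale understates the change of low genes. Fold changes are IPI-9119 over DMSO. On the recovered counts edgeR 4.0.16 called 9072 genes and DESeq2 1.42.0 called 8460, against 9061. Gene positions, exonic length (all exons merged) and GC content came from GENCODE 29. The correction took each library's log2 deviations from gene means and subtracted their fit on length and GC percent (splines of 4 degrees of freedom). The tests were tested on simulated counts. No replicate pair within a group agreed within counting error (chi-square over its degrees of freedom 2.30 to 9.59).

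Members and lists were chosen with earlier results of these data known. All members are named; of each related list, the text names up to 2 called genes with the greatest rise and 2 with the greatest fall.

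Alternatives were another pseudocount, filter, scaling (TMM, quantile) or moderation, edgeR, DESeq2, each library left out, the replicate block and the correction; the correction by principal transcript was added after seeing the data. A gene that the rule for named genes selects, and some marker values, are not reported here.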

Additional observations from a re-analysis of the deposited data

How the results depend on the processing

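Of 24 falls, 16 kept their direction and call under all 19 alternatives run, as did both rises. The count of lower members was 19 to 24 over the alternatives and 20 to 22 with 1 library left out, against 24. With the length and GC correction, alone or with the replicate block, 6 members were higher, against 2. The count of higher partner genes was 5 without trend and robust moderation and 5 to 8 with 1 library left out, against 8. Deviations from group means correlated at 0.14, 0.063 and 0.0044 between same-numbered libraries of the 2 groups. Between libraries of different number they ran from -0.14 to 0.099. Whether same-numbered libraries shared a batch is not stated in the labels. With the replicate block 24 members were lower and 3 higher, SIRT2 being added (adjusted p 0.0466).

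These results changed sign. Under the correction (merged exons, with and without the replicate block) HDAC1 was at -0.18, HDAC2 0.020, HDAC5 0.031, HDAC10 0.078, HDAC11 0.19, SIRT3 0.013 and BRD9 0.45. By principal transcript, chosen after seeing the data, NAA10 was at -0.0053, HDAC1 -0.17, HDAC5 0.21, HDAC11 0.054 and RBBP7 -0.070. Quantile scaling gave -0.000449 for HDAC1 and 0.11 for BRD9. With 1 library left out, HDAC1 ran from -0.010 to 0.030, HDAC2 from -0.011 to 0.019 and BRD9 from -0.032 to 0.020. Differences of log2 ratios turned for HDAC1/HDAC2 (-0.20 under the correction; -0.0049 to 0.038 with 1 library left out), HDAC6/HDAC10 (0.14 with quantile scaling, -0.11 to 0.049 with 1 library left out), SIRT6/SIRT7 (-0.029 under the correction, -0.018 to 0.15 with 1 library left out) and NAA10/NAA50 (0.096 under the correction). The cause was not tested. Depth limits CREBBP, HDAC4 and HDAC10 most, which had 60 to 162 reads over the IPI-9119 libraries.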
